A study of Homo sapiens with 12 samples.

Results

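The 4 kinases that phosphorylate the alpha subunit of eIF2, and PPP1R15B, which helps to reverse that mark, were followed in 12 ribosome profiling libraries. The genes were EIF2AK1 (accession NM_014413, encoding HRI), EIF2AK2 (NM_002759, PKR), EIF2AK3 (NM_004836, PERK), EIF2AK4 (NM_001013703, GCN2) and PPP1R15B (NM_032833, CReP). They were chosen by name for their place in this pathway, not for their values, but with earlier results of these data known. They are 5 of the 19305 coding sequences counted. RefSeq places them on chromosomes 7, 2, 2, 15 and 1, in that order. All 5 passed the filter on low counts in every comparison.

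Ribosome profiling counts the short mRNA fragments that ribosomes cover, called footprints. HEK293T cells, a line of human embryonic kidney origin, gave 8 libraries, all exposed to sodium arsenite, an oxidative stressor. They carried control or eIF2A siRNA and were made from mRNA immunoprecipitated (IP) with CBP80, a subunit of the nuclear cap-binding complex, or with eIF4E, the cytoplasmic cap-binding protein. H9, a line of human embryonic stem cells, gave 4 libraries with control or eIF2A shRNA, and their labels name no IP target and no arsenite. Each of the 6 groups held 2 libraries, numbered set 1 and set 2. No label says whether a set is its own culture, so each p-value reflects only how these libraries spread, which may be technical.

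eIF2 carries the initiator tRNA to the ribosome, and phosphorylation of its alpha subunit blocks the recycling of eIF2 by eIF2B, which lowers translation in general and raises that of a few mRNAs such as ATF4. Each kinase responds to its own signals: HRI to heme shortage, arsenite and mitochondrial stress, PKR to double-stranded RNA, PERK to unfolded protein in the endoplasmic reticulum (ER), and GCN2 to uncharged tRNA and stalled ribosomes. CReP holds protein phosphatase 1 on eIF2 in unstressed cells, while its relative GADD34 (PPP1R15A) is made under stress. The study asked what eIF2A, a separate protein that can also bring initiator tRNA to ribosomes, does for mRNAs held by each cap-binding protein and for stem cells.

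The promoters of EIF2AK2 and PPP1R15B are shown because these genes had the largest differences between the cell lines, in opposite directions. Sequences come from RefSeq, build GRCh38.p14, whose promoter table matched 4 of the 5 genes. Each runs 5′ to 3′ from 250 bases before the transcription start to 20 bases into the transcript, on the minus strand, at chr2:37156961-37157230 for EIF2AK2 and chr1:204411798-204412067 for PPP1R15B. Capitals mark matches, on either strand, to 4 motifs: CCAAT (the CCAAT box), GAAANNGAA (the core of the interferon-stimulated element), TGATGCAA (the C/EBP-ATF element bound by ATF4) and TGACGT (the core of the cAMP element).
EIF2AK2: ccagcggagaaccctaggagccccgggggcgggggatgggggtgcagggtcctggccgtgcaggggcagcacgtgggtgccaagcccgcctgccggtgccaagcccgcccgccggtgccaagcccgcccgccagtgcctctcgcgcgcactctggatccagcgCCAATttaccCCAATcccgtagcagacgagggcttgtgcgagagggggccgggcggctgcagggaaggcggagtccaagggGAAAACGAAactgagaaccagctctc
PPP1R15B: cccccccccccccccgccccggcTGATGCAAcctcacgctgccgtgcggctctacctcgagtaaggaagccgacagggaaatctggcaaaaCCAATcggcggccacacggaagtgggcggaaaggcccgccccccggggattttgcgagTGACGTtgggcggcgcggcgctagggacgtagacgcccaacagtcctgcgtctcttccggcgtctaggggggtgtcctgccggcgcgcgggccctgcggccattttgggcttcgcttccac

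The EIF2AK2 promoter held GAAANNGAA once, at position -6 from the start, and CCAAT at -87 and -77. The PPP1R15B promoter held TGATGCAA at -227, CCAAT at -159 and TGACGT at -101. Among 35116 RefSeq promoters, from 250 bases before to 50 after the start, 8.11% held GAAANNGAA, 0.866% TGATGCAA, 34.6% CCAAT and 7.98% TGACGT. The EIF2AK3 promoter held CCAAT 4 times, and that of EIF2AK4 held none of the 4 motifs. A match describes the letters only.

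Levels are given as counts per 1000000 coding reads of a library (CPM). HEK293T libraries held 4331459 to 5775177 coding reads and H9 libraries 937990 to 1878700. The limit that a count of 0 allows, 3 reads, was 0.519 to 0.693 CPM in HEK293T and 1.6 to 3.2 CPM in H9. The CBP80-labelled and eIF4E-labelled libraries of the same siRNA and set differed by little more than sampling noise (chi-square per degree of freedom 1.01 to 1.03, against 3.95 to 5.52 between the sets of a group). They were therefore summed and counted as 1 library, which leaves 4 in HEK293T. H9 libraries with different shRNA labels in the same set were nearly as close (1.04 to 1.07), and the sets were not (2.75 to 3.13).

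EIF2A, the gene targeted, did not separate the groups as labelled. The libraries labelled control siRNA held 83.2 and 83.5 CPM of EIF2A in sets 1 and 2, and those labelled eIF2A siRNA 96.0 and 46.7. In set 2 the level with eIF2A siRNA was 0.559 of the control (95% interval 0.500 to 0.626, counting error only), and in set 1 it was 1.15 (1.05 to 1.26). In H9 the ratio was 1.07 (0.864 to 1.32) in set 1 and 1.12 (0.802 to 1.56) in set 2. Each direction below is therefore one between libraries so labelled.

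In arsenite-treated HEK293T cells, footprints on EIF2AK2 were higher in the libraries labelled eIF2A siRNA, and the other 4 genes stood above the control without passing the test. PKR, the product of EIF2AK2, is the kinase of the antiviral response. EIF2AK2 held 25.8 and 23.1 CPM in the control libraries of sets 1 and 2, and 38.5 and 35.8 with eIF2A siRNA. The groups averaged 24.4 ± 1.98 CPM against 37.2 ± 1.91 (SD, n = 2 each). The fitted difference was 0.51 ± 0.15 (log2, SE; 95% interval 0.21 to 0.82), or 1.43-fold, with an adjusted p of 0.0159 by edgeR's quasi-likelihood test. That put EIF2AK2 at percentile 92.0 of the fold changes of all 12331 genes tested.

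EIF2A itself had ratios of 1.15 and 0.559 in sets 1 and 2 by total reads, and its part in the rise of EIF2AK2 was not tested. On the same scale the ratios of EIF2AK2, libraries labelled eIF2A siRNA over control, were 1.49 (1.28 to 1.74) and 1.55 (1.31 to 1.84). The call was lost with DESeq2 (adjusted p = 0.0582) and without the control of set 1 (0.0692), the control of set 2 (0.396) or the eIF2A siRNA library of set 1 (0.105). Over all alternatives the adjusted p ran from 0.00206 to 0.396, and every fitted value stayed above 0. Uniquely placed reads that fell outside coding sequences also moved with the labels, as a share of all uniquely placed reads, from 39.9 and 40.1% to 51.0 and 51.1% in set 1 and from 35.2 and 35.3% to 42.2 and 42.4% in set 2. Its part in the result was not tested.

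**Figure D1:**
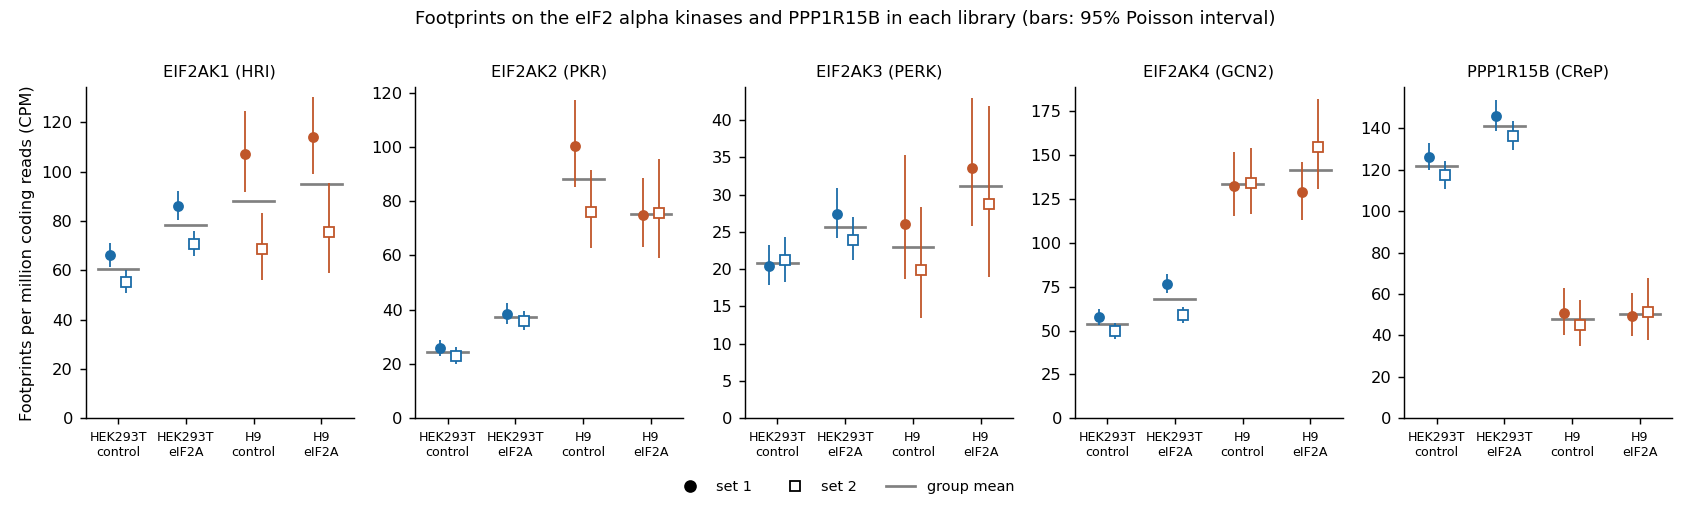
Footprints on each gene in CPM, with the IP-labelled runs of a HEK293T library summed: filled circles are set 1, open squares set 2, vertical bars the 95% Poisson interval of a library and grey lines group means. EIF2AK2 at 23.1 to 25.8 CPM in HEK293T controls lies below the 35.8 to 38.5 CPM with eIF2A siRNA, and both lie below H9, while PPP1R15B is lower in all H9 libraries than in all HEK293T libraries.

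EIF2AK1 encodes HRI, the kinase known to answer arsenite. Its footprints stood at 66.1 and 55.3 CPM in the HEK293T controls and at 86.0 and 70.7 CPM with eIF2A siRNA, or 60.7 ± 7.67 against 78.3 ± 10.9 CPM (SD, n = 2 each). The ratios in sets 1 and 2 were 1.30 (1.18 to 1.44) and 1.28 (1.14 to 1.43) by total reads. The fitted difference of 0.28 ± 0.14 (log2, SE) missed the threshold, with an edgeR adjusted p of 0.182, and ran from 0.16 to 0.39 without 1 library. The ratio of set 2 to set 1 was 0.836 (0.746 to 0.936) in the controls and 0.822 (0.745 to 0.906) with eIF2A siRNA, so both groups were lower in set 2.

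EIF2AK4 encodes GCN2, the amino acid sensor. It had 57.7 and 49.8 CPM in the controls, and 76.8 and 58.7 CPM with eIF2A siRNA. The control of set 1 and the eIF2A siRNA library of set 2 nearly met. Its ratios in sets 1 and 2 were 1.33 (1.20 to 1.48) and 1.18 (1.05 to 1.33), and the fitted difference was 0.24 ± 0.14 (log2, SE; edgeR adjusted p = 0.269). Without the eIF2A siRNA library of set 1 the difference in EIF2AK4 was 0.087.

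EIF2AK3 encodes PERK, the ER sensor. It gave the fewest reads of the 5 genes per HEK293T library, 201 to 269, at 20.5 and 21.2 CPM in the controls and 27.4 and 24.0 CPM with eIF2A siRNA. Its ratio was 1.34 (1.12 to 1.60) in set 1 and 1.13 (0.940 to 1.37) in set 2, so the difference in set 2 lay within counting error. The fitted difference was 0.21 ± 0.16 (log2, SE; edgeR adjusted p = 0.411).

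PPP1R15B, for the phosphatase subunit CReP, had 126.1 and 117.4 CPM in the controls and 146.1 and 136.5 CPM with eIF2A siRNA. Its ratio was 1.16 in each set (1.08 to 1.25 and 1.08 to 1.26). Those intervals lay above 1 by total reads, but the fitted difference after TMM scaling was only 0.13 ± 0.13 (log2, SE; 95% interval -0.14 to 0.39; edgeR adjusted p = 0.585). PPP1R15B thus had the smallest fitted difference of the 5 genes.

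Of the 5 genes, 1 was called higher and 0 lower in this comparison. Of all genes tested 6.15% were called higher and 6.29% lower. All 5 stood higher in both sets by CPM, as did 47.6% of the 8482 genes of at least 10 CPM, and all 5 fitted values were above 0 with TMM, RLE and total-read scaling alike. Their median was 0.24 (log2), against 0.00 over all genes.

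Within each IP label EIF2AK2 again had the largest fitted difference of the 5 genes. In the CBP80-labelled libraries EIF2AK2 had 25.3 and 24.6 CPM in the controls, against 39.3 and 40.3 with eIF2A siRNA. In the eIF4E-labelled libraries it had 26.4 and 21.2 against 37.7 and 31.7 CPM, with 2 libraries in each group. EIF2AK2 was higher by 0.59 ± 0.15 (log2, SE) in the CBP80-labelled libraries, with an edgeR adjusted p of 0.0423, and by 0.45 ± 0.15 in the eIF4E-labelled libraries, where it missed the threshold (adjusted p = 0.107). The CBP80-labelled call held in 7 of 13 alternatives, with adjusted p up to 0.280. It was lost with DESeq2 (0.0666), without any 1 of the 4 CBP80-labelled libraries (0.0919 to 0.280) and without the eIF4E-labelled control of set 2 (0.0510). These fits take all 8 HEK293T libraries, so near-identical runs enter as separate libraries in the estimate of spread, and their p-values may be too small.

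The CBP80-labelled comparison thus called 1 of the 5 genes higher, where 1.55% of 11778 genes were called higher. The eIF4E-labelled comparison called 0 of 5 with edgeR (EIF2AK2 and EIF2AK3 had unadjusted p under 0.05), where 1.25% of genes were called higher. EIF2AK3 differed most between labels in 1 set: its ratio in set 2 was 0.956 (0.737 to 1.24) in the CBP80-labelled libraries and 1.39 (1.05 to 1.85) in the eIF4E-labelled ones. The test of the siRNA effect between IP labels called 0% of 11778 genes (530 at an unadjusted p under 0.05, and 0 with DESeq2). The 5 genes' differences in that test ran from -0.15 (EIF2AK2) to 0.26 (EIF2AK3) on the log2 scale, each with an edgeR adjusted p of 0.995. With IP-labelled runs this near to identical, that test cannot tell whether the effect is the same for both cap-binding proteins.

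None of the 5 genes passed the test between eIF4E-labelled and CBP80-labelled libraries. The libraries of a pair differed by little more than sampling noise (chi-square per degree of freedom 1.01 to 1.03), so this test had little to find. Whether they come from separate IPs was not tested, so it cannot tell whether both cap-binding proteins hold these mRNAs alike. With siRNA and set as a block, the log2 difference ran from -0.15 ± 0.08 (EIF2AK2; 95% interval -0.31 to 0.01) to 0.01 ± 0.04 (PPP1R15B; -0.07 to 0.08), so that 0 of 5 genes were called, against 0.0509% of all genes. In single pairs the eIF4E to CBP80 ratio of EIF2AK2 ran from 0.787 to 1.04 and that of EIF2AK3 from 0.773 to 1.12. The better covered PPP1R15B stayed within 0.960 to 1.05.

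**Figure D2:**
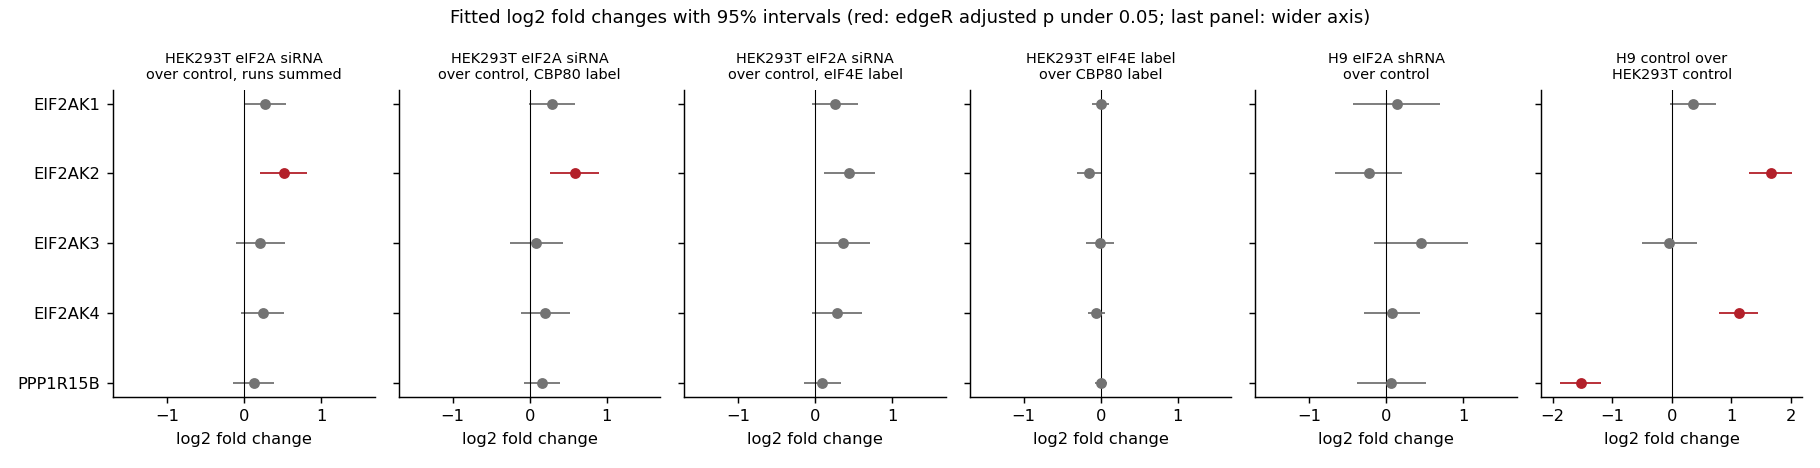
Fitted log2 fold changes of the 5 genes with 95% intervals in 6 comparisons, in red where edgeR's adjusted p was under 0.05. The axis of the last panel is wider: EIF2AK2 is red with runs summed (0.51), in the CBP80-labelled libraries (0.59) and between cell lines (1.67), and PPP1R15B is red only between cell lines (-1.53).

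In H9 stem cells, the libraries labelled eIF2A shRNA passed the test against the control in none of the 5 genes. EIF2AK2 had 100.2 and 76.1 CPM in the controls of sets 1 and 2, and 75.1 and 75.7 CPM with eIF2A shRNA. Set 1 gave EIF2AK2 a ratio of 0.749 (0.593 to 0.946), and set 2 gave 0.995 (0.729 to 1.35). The fitted log2 difference was -0.23 ± 0.19 (95% interval -0.66 to 0.21). Without the control of set 1 the fitted difference was -0.026. That control stood above the other 3 libraries, which lay between 75.1 and 76.1 CPM.

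EIF2AK3 had the largest fitted difference of the 5, 0.46 ± 0.27 (log2, SE; 95% interval -0.15 to 1.06), on few reads. Its counts were 41 and 30 in the controls and 63 and 27 with eIF2A shRNA, or 26.0 and 19.9 against 33.5 and 28.8 CPM. The ratios of 1.29 (0.857 to 1.96) and 1.45 (0.829 to 2.52) each lay within counting error of 1.

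EIF2AK4 held 132.5 and 134.3 CPM in the controls against 128.8 and 154.6 with eIF2A shRNA, a fitted log2 difference of 0.07 ± 0.16 (95% interval -0.29 to 0.44). PPP1R15B held 50.7 and 45.0 CPM against 49.5 and 51.2 (0.07 ± 0.20; -0.38 to 0.52). The groups overlapped for both genes. EIF2AK1 held 107.2 and 68.8 CPM against 113.9 and 75.7 (0.14 ± 0.25; -0.43 to 0.71), so that its sets differed far more than its labels. The ratio of set 2 to set 1 of EIF2AK1 was 0.642 (0.498 to 0.825) in the control and 0.665 (0.501 to 0.873) with eIF2A shRNA.

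The H9 comparison called 0 of the 5 genes and 0% of the 9751 genes tested with edgeR, with 84 genes at an unadjusted p under 0.05 and 0 called by DESeq2. At 27 to 242 reads a library, a rise of the size seen for EIF2AK2 in HEK293T (0.51, log2) was set against the 95% intervals. It lay inside those of EIF2AK1 and EIF2AK3, at the edge of that of PPP1R15B, and outside those of EIF2AK2 and EIF2AK4. A fall of that size lay inside the interval of EIF2AK2. The median of the 5 genes was 0.07, against 0.00 over all genes.

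A test of the knockdown effect in HEK293T minus that in H9, added after the data were seen, gave 0.76 ± 0.25 for EIF2AK2 (log2, SE; 95% interval 0.25 to 1.26). Its unadjusted p was 0.00453 and its edgeR adjusted p 0.427, so the difference between the cell lines' effects failed the correction. The other 4 genes gave -0.24 to 0.18. The test called 0% of 12911 genes (1062 at an unadjusted p under 0.05, and 0 with DESeq2).

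Between the cell lines the genes moved apart from one another. In H9 control cells footprints on EIF2AK2 and EIF2AK4 were higher than in HEK293T controls, those on PPP1R15B were lower, and EIF2AK1 and EIF2AK3 did not pass the test. Cell line, arsenite, IP and the kind of knockdown all differ between these groups and cannot be told apart. In bulk libraries such as these, fewer cells of a type and fewer footprints per cell cannot be told apart either.

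EIF2AK2 averaged 88.1 ± 17.0 CPM (SD, n = 2) in H9 controls and 24.4 ± 1.98 in HEK293T controls. The lowest of all 4 H9 libraries, 75.1 CPM, lay above the highest HEK293T library, 38.5 CPM. The fitted difference was 1.67 ± 0.18 (log2, SE; 95% interval 1.31 to 2.03), or 3.17-fold, with an edgeR adjusted p of 5.35e-10. EIF2AK2 with eIF2A siRNA in HEK293T, at 37.2 CPM, thus stayed below every H9 library.

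EIF2AK4 averaged 133 ± 1.29 CPM in H9 controls and 53.7 ± 5.57 in HEK293T controls (SD, n = 2 each), and all 4 H9 libraries (128.8 to 154.6 CPM) lay above all 4 HEK293T libraries (49.8 to 76.8). It was 2.19-fold higher in H9 (log2 1.13 ± 0.16; edgeR adjusted p = 2.52e-07). GCN2 and PKR, the kinases of amino acid shortage and of double-stranded RNA, were the members called higher in the stem cells.

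PPP1R15B went the other way, at 47.9 ± 4.05 CPM in H9 controls and 122 ± 6.21 in HEK293T controls (SD, n = 2 each). No library of either line came near those of the other, with 45.0 to 51.2 CPM against 117.4 to 146.1. The difference was -1.53 ± 0.17 (log2, SE; 95% interval -1.87 to -1.19), or 2.88-fold lower in H9 (edgeR adjusted p = 1.27e-09). The calls of EIF2AK2, EIF2AK4 and PPP1R15B held under all 13 alternatives.

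EIF2AK1 was 0.35 ± 0.19 (log2, SE) higher in H9 controls, with an edgeR adjusted p of 0.0950. It passed the threshold with total-read scaling (0.54, adjusted p = 0.0213) and without the H9 control of set 2 (0.61, adjusted p = 0.00891), the lower of the H9 control libraries. Without the H9 control of set 1, the higher one, the difference was 0.0080 (adjusted p = 0.978), so it rests on which H9 control is used. EIF2AK3 differed by -0.04 ± 0.23 (95% interval -0.50 to 0.42; adjusted p = 0.882), and by 0.14 with total-read scaling. The median over all genes was -0.07 with TMM and 0.11 with total-read scaling. With total-read scaling the called members stood at 1.85 (EIF2AK2), 1.31 (EIF2AK4) and -1.35 (PPP1R15B).

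Of the 5 genes, 2 were called higher in H9 and 1 lower. Calls were common in this comparison: 33.5% of 12911 genes were called higher and 36.5% lower, so a called member is no exception here. EIF2AK2 stood at percentile 84.1 of all fold changes, EIF2AK4 at 77.1 and PPP1R15B at 18.4.

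The markers set the lines apart, with exceptions. The 9 pluripotency genes summed to 4985 to 5294 CPM in H9 and 82.3 to 101 CPM in HEK293T, with POU5F1 at 0 in both lines and LIN28A and CRIPTO at 0 in HEK293T. The counts set reads with several placements apart from all genes, so a gene with near-identical copies can be listed at 0, which was not tested for POU5F1. In H9 the 6 fibroblast genes summed to 527 to 816 CPM, with DCN and LUM at 0, and the 3 neural genes to 449 to 1066 CPM, with PAX6 at 0. In HEK293T the same lists summed to 19.9 to 26.8 and 57.8 to 65.5 CPM. The endoderm and mesoderm lists stayed at or under 17.9 CPM in every library. The part of these other cell types' genes in the results was not tested.

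The division of footprints among the 5 genes within a library does not depend on library size. PPP1R15B took 39.0 to 44.0% of the reads on the 5 genes in HEK293T and 12.2 to 13.3% in H9. EIF2AK4 took 18.0 to 20.5% in HEK293T and 31.8 to 40.1% in H9, and EIF2AK2 8.65 to 11.0% against 18.7 to 24.0%. PPP1R15B, EIF2AK4 and EIF2AK2 are also the genes called between the lines, where 33.5% of all genes were called higher in H9 and 36.5% lower. The shares are made from the same reads as that test and are tied to one another, so they add no separate support. The shares of EIF2AK1 (20.7 to 22.9% against 19.6 to 28.4%) and EIF2AK3 (6.91 to 7.94% against 5.77 to 8.37%) overlapped.

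**Figure D3:**
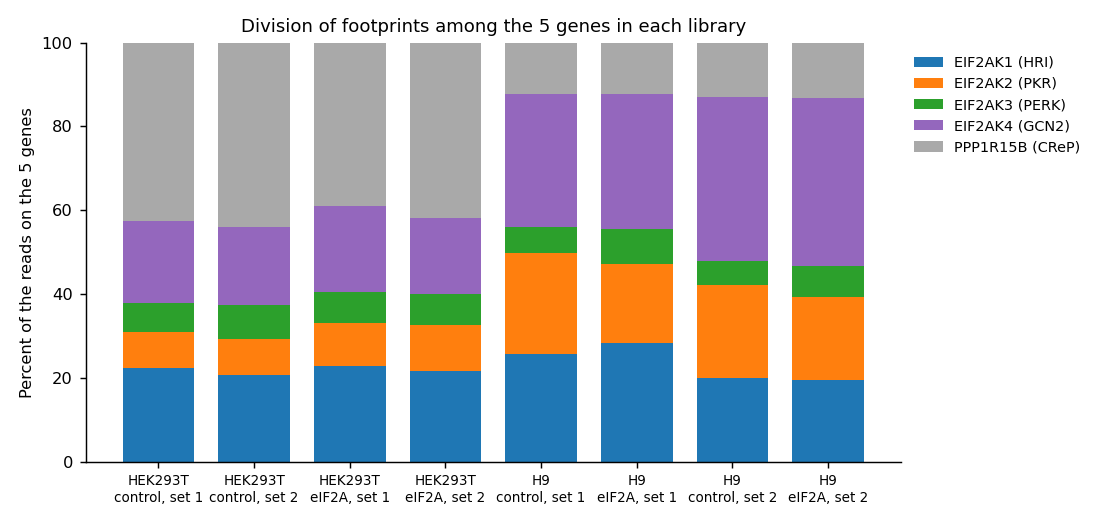
Percent of the reads on the 5 genes that fell on each gene, stacked to 100 for each of the 8 libraries, with the IP-labelled runs of HEK293T summed. The grey PPP1R15B segment is 39.0 to 44.0% in HEK293T and 12.2 to 13.3% in H9; shares also follow coding length, so only the same gene can be compared across bars.

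The kinases and the phosphatase subunit thus differed in balance between the lines. The 4 kinases together held 149.3 to 228.8 CPM in HEK293T and 299.1 to 365.9 CPM in H9. Among them only EIF2AK2 and EIF2AK4 were called between the lines, and EIF2AK1 and EIF2AK3 were not. For each read on the kinases there were 0.639 to 0.786 reads on PPP1R15B in HEK293T and 0.139 to 0.153 in H9. In HEK293T that ratio was 0.742 (0.692 to 0.794, counting error only) and 0.786 (0.726 to 0.851) in the controls of sets 1 and 2. With eIF2A siRNA the ratio was 0.639 (0.597 to 0.683) and 0.721 (0.675 to 0.771), lower than the control in each set. The intervals lay apart in set 1 but overlapped in set 2. The interval of the set 1 control also overlapped that of the set 2 library with eIF2A siRNA. The difference in this ratio between the siRNA labels was not tested.

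PPP1R15A, the stress-induced relative of PPP1R15B, differed more. It held 246.4 to 266.2 CPM in HEK293T and 3.17 to 9.59 CPM in H9, where its counts were 5 to 9 reads. For each PPP1R15B read there were 1.74 to 2.15 PPP1R15A reads in HEK293T and 0.0625 to 0.188 in H9. The H9 control differed from the HEK293T control by -5.96 ± 0.27 (log2, SE) for PPP1R15A (edgeR adjusted p = 2.26e-19). With eIF2A siRNA in HEK293T PPP1R15A differed by -0.03 ± 0.14 (log2, SE; adjusted p = 0.928).

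The rest of the pathway was read through 72 genes in 7 lists. In the HEK293T comparison of siRNA labels with runs summed, the genes that the kinases act on or through had medians below 0 in the libraries labelled eIF2A siRNA. The median over all genes was 0.00 with TMM and 0.09 with total-read scaling. Of all genes tested 6.15% were called higher and 6.29% lower with TMM. The counts of each list in this comparison are to be read against those shares. The median of the 8 subunits of eIF2 and eIF2B was -0.30 (log2) and all 8 lay below 0 with TMM, RLE and total-read scaling. 2 of 8 fell, EIF2B3 by 0.42 (edgeR adjusted p = 0.0254) and EIF2B2 by 0.40 (0.0422), both subunits of eIF2B, the exchange factor that phosphorylated eIF2 blocks. With total-read scaling neither passed (-0.34 and -0.31, adjusted p = 0.0736 and 0.138). EIF2S1, the alpha subunit that the kinases phosphorylate, lay at -0.15 ± 0.14 (adjusted p = 0.506).

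Of the 18 stress response targets, many of them genes that ATF4 activates, 1 rose and 6 fell, with a median of -0.32 (1 and 3 with total-read scaling, median -0.24). ATF3, a stress-induced transcription factor, fell by 0.73 (edgeR adjusted p = 0.000147), the serine and glycine enzyme SHMT2 by 0.66 (0.000712) and the cystine transporter SLC7A11 by 0.57 (0.00216). VLDLR, a lipoprotein receptor, rose by 0.98 (0.00252). ATF4 itself had 646.1 and 665.7 CPM in the controls and 497.4 and 579.4 with eIF2A siRNA. The fitted difference of ATF4, -0.37 ± 0.14 (log2, SE), did not pass the threshold (edgeR adjusted p = 0.0728).

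The 11 regulators of the kinases had a median of -0.13, with 0 higher and 1 lower. That gene was HSPA5, the ER chaperone that holds PERK inactive, which fell by 0.52 (edgeR adjusted p = 0.0179). Of the 4 phosphatase partners 0 were called by edgeR (none had an unadjusted p under 0.05), with a median of -0.004 (0.085 with total-read scaling). PPP1CA and PPP1CB are catalytic subunits of protein phosphatase 1. PPP1CA lay at -0.20 ± 0.14 (adjusted p = 0.345) and PPP1CB at 0.05 ± 0.14 (0.840).

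In the list of other ER stress sensors, which also holds genes that act with them, 5 of 6 genes were tested, with a median of -0.09. XBP1, the transcription factor spliced by the sensor IRE1, fell by 0.66 (edgeR adjusted p = 0.000474), and MBTPS1, the protease that cleaves ATF6, rose by 0.39 (0.0466). Of 16 double-stranded RNA and interferon genes, the group that shares signals with PKR, 11 were tested and 1 rose, with a median of 0.14. RIGI, a sensor of viral RNA, rose by 0.70 (0.0146). STAT2, which carries the interferon signal, lay at -0.33 ± 0.14 and did not pass the threshold (adjusted p = 0.105). Of the 9 heme and arsenite genes 1 rose (2 with total-read scaling), with a median of 0.20. It was HMOX1, which degrades heme, higher by 0.40 (0.0402).

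**Figure D4:**
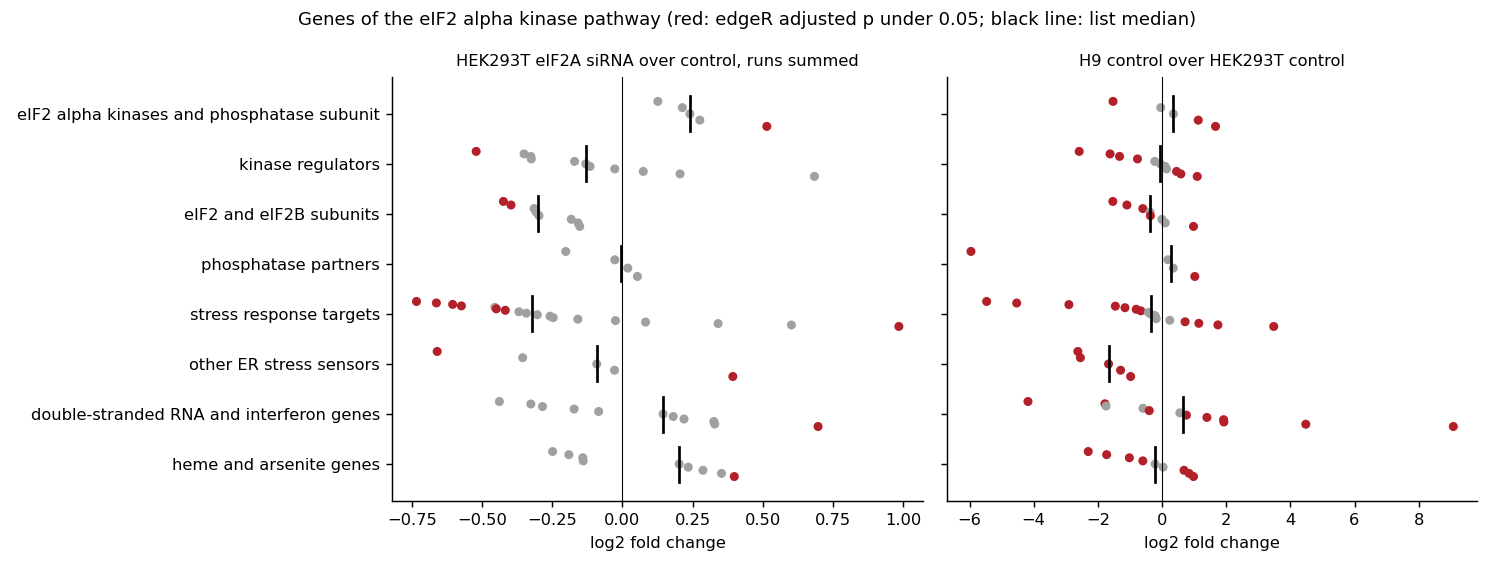
Fitted log2 fold changes of the tested genes of each list, 1 point a gene, with the list's median as a black line and genes of edgeR adjusted p under 0.05 in red. In HEK293T all 5 member genes lie above 0 and all 8 eIF2 and eIF2B subunits below it; the rightmost point between cell lines is MX1, at 0 reads in both HEK293T controls, whose fitted value depends on the prior count.

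Between the cell lines ATF4, which is translated more when eIF2 alpha is phosphorylated, was lower in H9 controls by more than any other stress target tested. It differed by -5.47 ± 0.22 (log2, SE), at 22.8 and 10.6 CPM against 646.1 and 665.7 CPM (edgeR adjusted p = 5.18e-21). Of 17 stress targets tested 4 were higher and 7 lower, with a median of -0.36. Over all genes 33.5% were called higher and 36.5% lower, and the counts of the lists below are to be read against those shares. The other large differences were DDIT3, the proapoptotic factor CHOP, at -4.53 on 0 and 7 reads in the H9 controls, ATF3 at -2.90 and VLDLR at 3.48. Some targets had a higher mean in H9 controls than in HEK293T controls: CHAC1 (40.5 against 10.7 CPM), PSAT1 (350 against 139) and TRIB3 (21.8 against 11.7).

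All 5 tested genes in the list of other ER stress sensors were lower in H9, with a median of -1.67, while EIF2AK3 was not called. The list also holds XBP1 and the proteases that cleave ATF6, which are not sensors themselves. ERN1, which encodes IRE1, differed by -2.55 ± 0.35 (edgeR adjusted p = 1.41e-07), on 5 and 6 reads in the H9 controls. ATF6, the other membrane-bound sensor, differed by -1.29 ± 0.18 (1.03e-07). The proteases that cleave ATF6 stood at -2.62 ± 0.25 (MBTPS1) and -1.67 ± 0.22 (MBTPS2). Of the kinase regulators 3 were higher and 4 lower, with a median of -0.05 (0.13 with total-read scaling). DELE1, the mitochondrial messenger that activates HRI, was higher by 1.10 ± 0.18 (3.64e-06), and OMA1, the protease that cleaves DELE1, was lower at -2.58 ± 0.21 (1.64e-12). HSPA5 stood at -1.62 ± 0.18 (6.38e-08) and HSP90AA1, a chaperone of the kinases, at -1.33 ± 0.13 (2.09e-10). HSP90AB1, of the same list, was not lower by mean level, at 4430 CPM in H9 controls against 3653 CPM in HEK293T controls.

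Of the 12 tested double-stranded RNA and interferon genes 6 were higher in H9 and 3 lower, with a median of 0.66. ISG15, an interferon-induced modifier, was higher by 1.92 ± 0.31 (edgeR adjusted p = 1.99e-06). MX1, an interferon-induced GTPase, had 18 and 20 reads in the H9 controls and 0 in the HEK293T controls, at least 42.4-fold higher (against 3 counts per library). The median is 0.66 with MX1 at that bound too. With total-read scaling 6 were higher and 2 lower.

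Of the subunits of eIF2 and eIF2B 1 was higher in H9 and 4 were lower, with a median of -0.37, and EIF2B3 (-1.53 ± 0.16), EIF2B1 (-1.10 ± 0.16), EIF2B4 (0.98 ± 0.16) and EIF2B2 (-0.60 ± 0.17) had the smallest p. Of the phosphatase partners PPP1CA was higher by 1.02 ± 0.13 (edgeR adjusted p = 4.41e-08), and PPP1R15A was lower as given above, with a median of 0.27 over all 4. Of the heme and arsenite genes 3 were higher and 4 lower, with a median of -0.22. TXNRD1, a thioredoxin reductase, was lower at -2.30 ± 0.16 (1.15e-14), BACH1, a heme-binding repressor, at -1.73 ± 0.20 (3.22e-09) and GCLM, for glutathione synthesis, at -1.02 ± 0.20 (4.76e-05). FECH, which inserts iron into heme, was higher by 0.84 ± 0.23 (0.00188). HMOX1 was not called (-0.22 ± 0.18, adjusted p = 0.272).

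Over the 8 libraries, the genes whose log2(CPM + 1) ran most like each member were sought among 5509 genes of at least 20 CPM in both lines. All points share the difference between cell lines, so these correlations are a description. EIF2AK2 ran most like MTMR2 (r = 0.996) and RAD23B (0.994), EIF2AK4 like ANAPC4 and ADAR (0.997 each), and PPP1R15B like GTPBP4 and CHD9 (0.997 each). EIF2AK1, whose sets differed, ran most like XPOT (0.981) and TRIM59 (0.978). EIF2AK3, with the smallest fitted difference between cell lines (-0.04), had the lowest correlations, RIC8B (0.966) and SYNJ2 (0.952).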

How the data were processed

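The authors deposited raw counts, as whole numbers with no normalization, for each RefSeq coding sequence. TRIzol RNA went into a small RNA library kit, per the labels' protocols. The submitters' processing notes name cutadapt, STAR 2.5.2b and hg19. No source used here gives the counter, its strand setting or its annotation release: where genes overlap on opposite strands, their reads may be mixed. Rows that name no gene held 87.5 to 89.5% of all counts in HEK293T and 96.2 to 96.5% in H9 and were left out of library sizes and tests. Without mRNA-seq, which was not used here, a footprint count can move with the mRNA or with its translation.

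Accessions were named through RefSeq's GRCh38.p14 table (18884 of 19305). Its build differs from that of the counts, so only promoter sequences carry coordinates. Coding lengths were not used here, so levels are not compared between genes. The CBP80-labelled and eIF4E-labelled counts of each siRNA and set were summed before the main HEK293T test. The tests ran on these counts with edgeR 4.0.16 under R 4.3.3 (filterByExpr, TMM, robust glmQLFit, glmQLFTest), with Benjamini-Hochberg adjustment over all genes tested and a threshold of 0.05. Standard errors come from the F statistic. Intervals of single libraries and ratios are exact (Poisson or binomial, 95%). They hold counting error alone, since no molecular identifiers are named. Scripts were tested on simulated data with known changes.

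The members, the pathway and marker lists and the tests were chosen with earlier results of these data known. The rule for named genes takes EIF2A, ATF4 and all 5 members, per list and comparison at most 4 members past the threshold by smallest p (or the 2 of smallest p), and for each member the 2 genes of highest correlation. Some genes that the rule names are not reported here. EIF2S1, STAT2 and PPP1R15A with eIF2A siRNA, and HMOX1 between cell lines, fall outside that rule and were picked after their values were seen. The mean levels of CHAC1, PSAT1, TRIB3 and HSP90AB1 between cell lines and the recount of the lists with other scalings were also picked in that way. The alternatives were RLE scaling, total-read scaling, no count filter, DESeq2 1.42.0, the set as a block, and leaving out each library. The test between the cell lines' knockdown effects was added after the data were seen.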

Additional observations from a re-analysis of the deposited data

Results flagged for a closer look

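EIF2AK2 drew attention because its set ratios lay on opposite sides of 1 in the cell lines. Every HEK293T set had more footprints in the library labelled eIF2A siRNA (ratios 1.49 and 1.55). In H9 set 1 gave 0.749 (95% interval 0.593 to 0.946), and set 2 gave 0.995 (0.729 to 1.35), within counting error of 1. The fitted H9 difference was -0.026 without the control of set 1, so the contrast of directions rests on that library. The difference of the effects, HEK293T minus H9, was 0.76 on the log2 scale with an edgeR adjusted p of 0.427, and from 0.225 to 0.999 over the alternatives. EIF2A footprints were lower with the knockdown label in set 2 of HEK293T only. Arsenite, IP and the kind of knockdown differ between the lines and cannot be told apart from the cell line.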

How the results depend on the processing

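Of 480 alternative values for the 5 genes, 436 kept their direction and their side of the threshold, 10 lost a call, 7 gained one and 27 changed sign, all 27 among values without a call. Leaving out a library leaves 1 group with 1 library, which is then assumed to vary like the others.

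With runs summed, 1534 genes were called (758 higher, 776 lower) against 682 with DESeq2, 2993 with the set as a block, 740 higher and 292 lower with total-read scaling, and 75 to 2086 without 1 library (75 without the control of set 2, 287 without the eIF2A siRNA library of set 1, 983 without the control of set 1). The CBP80-labelled comparison called 473 (182 higher, 291 lower) against 287 with total-read scaling (154 and 133), 994 with no count filter, 2942 with the block and 3 to 818 without 1 library. The eIF4E-labelled comparison called 383 (147 and 236) against 186 (95 and 91), 869, 2776 and 0 to 747 in the same order. The comparison of IP labels called 6 against 2 with DESeq2, 0 without the replicate block and 4 to 9 without 1 library. The test of the siRNA effect between IP labels called 0, 2 with no count filter and 0 to 2 without 1 library. The cell lines gave 7776 to 9281 calls without 1 library, and H9 gave 0 under every alternative.

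The labels do not say that set numbers pair the libraries, and there are only 2 pairs (correlation of set differences 0.29 in HEK293T and 0.39 in H9). With the set as a block EIF2AK1 passed with runs summed (adjusted p = 0.0323), as it did in the CBP80-labelled (0.0220) and eIF4E-labelled libraries (0.0441), where EIF2AK2 (0.0170) and EIF2AK4 (0.0297) passed too.

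Signs changed for EIF2AK1 between IP labels (0.0052 with DESeq2, 0.0063 without the replicate block) and EIF2AK3 between cell lines (0.14 with total-read scaling). Without 1 library the log2 values ran from -0.036 to 0.22 for EIF2AK3 in the CBP80-labelled comparison; in H9 from -0.064 to 0.23 for EIF2AK4, -0.20 to 0.48 for EIF2AK1 and -0.0054 to 0.15 for PPP1R15B; between IP labels from -0.069 to 0.090 for EIF2AK3, -0.037 to 0.030 for EIF2AK1 and -0.018 to 0.033 for PPP1R15B. In the siRNA effect between IP labels they ran from -0.29 to 0.0038 for EIF2AK2 and -0.17 to 0.079 for EIF2AK1, between cell lines from -0.24 to 0.11 for EIF2AK3, and in the HEK293T minus H9 effect from -0.20 to 0.52 for EIF2AK1 and -5.2e-05 to 0.13 for PPP1R15B. Where the setting did not itself remove samples or genes, the cause was not tested. Coding reads were fewest in the H9 libraries, where EIF2AK3 rests on 27 to 63 reads.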
